A study of Mus musculus with 61 samples.

Results

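The genes described here are 9 members of the Notch pathway that were listed by name: the ligands Jag1 and Jag2, the receptors Notch1, Notch2 and Notch3, and the target genes Hes1, Hey1, Hey2 and Heyl. All 9 have a row among the 23927 gene rows of the deposited table. The table holds 61 single cells from ovaries of wild-type CD-1 mice at postnatal day 5, taken 6 hours after an intraperitoneal injection. There were 16 oocytes and 16 granulosa cells from solvent-injected mice, here called control, and 16 oocytes and 13 granulosa cells from mice given doxorubicin, an anthracycline that intercalates into DNA and poisons topoisomerase II. The dose is left out because its unit in the series text is unclear. The column headers of all cells share the same string after the cell name, which does not show whether cells were handled together. The labels name no animal, litter or pool. Each group is therefore 1 sample, nothing is tested between groups, and the spread over cells is given as a description.

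Notch receptors are single-pass membrane proteins that are cut when a ligand on a neighbouring cell binds them. The freed intracellular domain enters the nucleus, joins the DNA-binding protein RBPJ and Mastermind coactivators, and turns on genes of the HES and HEY families of basic helix-loop-helix repressors. In the neonatal mouse ovary the pathway is known for signalling from oocytes, which make Jagged ligands, to the pregranulosa cells around them while germ cell nests break down and primordial follicles form.

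In mm10 (GRCm38) with the GENCODE M21 annotation, the ligand gene Jag1 lies on chromosome 2 from 137081456 to 137116644 on the minus strand, and Jag2 on chromosome 12 from 112907819 to 112929776 on the minus strand. The receptor gene Notch1 lies on chromosome 2 from 26457903 to 26516663 on the minus strand, Notch2 on chromosome 3 from 98013527 to 98150361 on the plus strand, and Notch3 on chromosome 17 from 32120820 to 32166852 on the minus strand. Among the targets, Hes1 lies on chromosome 16 from 30064384 to 30067796 on the plus strand, and Hey1 on chromosome 3 from 8663359 to 8667256 on the minus strand. Hey2 lies on chromosome 10 from 30832359 to 30842801 on the minus strand, and Heyl on chromosome 4 from 123233556 to 123249875 on the plus strand.

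The bases just upstream of 1 ligand, 1 receptor and 1 target are shown because the core RBPJ binding letters, TGGGAA on either strand, are the DNA element through which Notch acts. RefSeq promoters of GRCm38.p6, which run from 250 bases before to 50 bases after a start, were available for 6 of the 9 members. Hes1, Hey1 and Heyl had no entry. Only bases before every annotated start are printed, 5′ to 3′ on the strand of the gene, and capitals mark the RBPJ core, which in Hey2 reads on the opposite strand. The stretches are chr2:137116645-137116770 for Jag1 (minus strand), chr3:98013288-98013526 for Notch2 (plus strand) and chr10:30842802-30843033 for Hey2 (minus strand).
Jag1: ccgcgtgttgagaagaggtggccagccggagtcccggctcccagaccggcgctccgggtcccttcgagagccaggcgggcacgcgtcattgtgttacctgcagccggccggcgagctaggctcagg
Notch2: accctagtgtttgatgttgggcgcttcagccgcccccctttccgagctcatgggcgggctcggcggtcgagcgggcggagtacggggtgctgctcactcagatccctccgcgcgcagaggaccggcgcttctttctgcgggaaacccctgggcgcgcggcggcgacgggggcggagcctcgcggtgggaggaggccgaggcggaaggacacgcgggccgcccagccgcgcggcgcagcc
Hey2: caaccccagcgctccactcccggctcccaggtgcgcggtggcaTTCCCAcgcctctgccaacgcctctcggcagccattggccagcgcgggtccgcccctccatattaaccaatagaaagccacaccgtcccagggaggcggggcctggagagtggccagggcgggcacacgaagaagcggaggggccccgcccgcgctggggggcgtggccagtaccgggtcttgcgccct
The core letters shown in Hey2 begin 189 bases before its start, and the whole promoter window held 2 matches. Hey2 was the 1 promoter of the 6 with a match (16.7%), against 8397 of 32851 promoters in the whole table (25.6%). A match is a description of these letters and not a measured binding site.

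Libraries held 6834594 to 31262609 estimated counts. Levels are given as CPM, counts per 1000000 counts of a cell or of a group of summed cells, and intervals cover 95% counting error only, since amplified reads without molecular identifiers are not independent molecules. Oocyte identity was plain in the oocyte libraries. The summed level of 18 oocyte markers ran from 25316 to 60175 CPM in control oocytes and from 18032 to 64671 CPM in doxorubicin oocytes, and it was above the summed level of 19 granulosa markers in each of them. The granulosa libraries were mixed. Oocyte markers summed to 425.0 CPM at the lowest, 1705 at the median and 17049 at the highest in control granulosa cells, and to 373.5, 8715 and 42293 CPM in doxorubicin granulosa cells. Granulosa markers exceeded oocyte markers in 10 of 16 control and 5 of 13 doxorubicin libraries. They exceeded each of the other lists in the same 10 control libraries and in 3 doxorubicin ones, cells 8, 14 and 16. Control granulosa cells 2, 8 and 13 held 9909, 9642 and 16597 CPM of stroma and theca markers and control granulosa cells 3 and 16 held 6425 and 7249 CPM of pericyte and smooth muscle markers. Doxorubicin granulosa cell 13 held 9755 CPM of stroma and theca, 1202 CPM of pericyte and smooth muscle and 2183 CPM of granulosa markers. Doxorubicin granulosa cell 15 held 8765 CPM of granulosa markers and 33378 CPM of blood and immune markers, among which Ptprc, Lyz2 and C1qa were at 0 in its group. Endothelial markers reached at most 365.6 CPM in control and 188.6 CPM in doxorubicin granulosa cells. How many cells each granulosa library held was not tested, so many results in these libraries are also given for subsets by marker content.

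The ligands were the oocyte side of the pathway. Jag2 was detected, with at least 5 counts, in 16 of 16 control and 16 of 16 doxorubicin oocytes, and Jag1 in 16 of 16 and 15 of 16. Each is a transmembrane Jagged protein that binds Notch receptors on a neighbour. Jag2 stood at 75.3 CPM in the lowest control oocyte, 182.2 at the median and 347.7 in the highest. Jag1 stood at 19.0, 56.9 and 190.1 CPM in the same cells. The ligands differed in level as well: per kilobase of transcript, group CPM was 39.2 for Jag2 and 12.6 for Jag1 in control oocytes, and 48.1 and 8.43 in doxorubicin oocytes. Jag2 was above Jag1 per kilobase in each of the 32 oocytes, with a median ratio of 4.25 over 16 control oocytes (range 1.58 to 8.79) and of 5.64 over the 15 doxorubicin oocytes that had Jag1 (range 1.36 to 136.7).

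Of the granulosa libraries, 8 of 16 control and 8 of 13 doxorubicin ones lacked both ligands. Jag2 was detected in 3 of 16 control granulosa cells (18.8%, exact binomial interval 4.05 to 45.6%) and in 3 of 13 doxorubicin ones (23.1%, 5.04 to 53.8%). Jag1 was detected in 5 of 16 (31.2%, 11 to 58.7%) and 4 of 13 (30.8%, 9.09 to 61.4%). Of the 9 libraries with Jag1, 5 lay in the control oocyte range and 4 below it, and those with Jag2 lay under the oocyte medians. Jag1 was at 97.3 CPM in control granulosa cell 4, 73.8 in cell 10 and 34.8 in cell 6, and at 138.2 and 98.1 CPM in doxorubicin granulosa cells 7 and 6. The lower ones were control granulosa cells 15 and 14 at 3.04 and 2.05 CPM and doxorubicin granulosa cells 2 and 10 at 9.82 and 2.08 CPM. Jag2 was at 60.4 CPM in control granulosa cell 5 and 39.5 in cell 11, and at 92.8 and 53.9 CPM in doxorubicin granulosa cells 12 and 2.

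In control cells the group level of Jag2 was 6.41 CPM in granulosa cells and 200 CPM in oocytes, a log2 ratio of -4.96 (-5.05 to -4.88). The highest granulosa cell stood at 60.4 CPM and the lowest oocyte at 75.3 CPM. The share of all genes with such a gap is not given here. Leaving out control granulosa cell 5 took the log2 ratio of Jag2 to -6.19. Jag1 was at 14.5 CPM against 70.6 CPM, a log2 ratio of -2.28 (-2.35 to -2.22), or -3.00 without control granulosa cell 4. In Jag1 the groups overlapped, with 13 of 16 granulosa cells below the lowest oocyte. Among the 10 control granulosa libraries led by granulosa markers the log2 ratios were -4.30 for Jag2 and -1.60 for Jag1.

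Ligand-positive granulosa libraries were found at both low and high levels of oocyte transcripts. Control granulosa cells 4, 5 and 10, which had Jag1 or Jag2, held 2473, 425.0 and 1508 CPM of oocyte markers. Doxorubicin granulosa cell 1 held 42293 CPM of oocyte markers, led by Padi6 at 9885 CPM and Ooep at 8946 CPM, and had 0 counts of both ligands. Doxorubicin granulosa cell 4 held 23996 CPM of oocyte markers with Jag1 at 0 and Jag2 at 0.0824 CPM. Doxorubicin granulosa cell 6, at 29770 CPM of oocyte markers, had Jag1 at 98.1 CPM and Jag2 at 0.277 CPM. Doxorubicin granulosa cell 12, at 16796 CPM of oocyte markers, had Jag2 at 92.8 CPM, and cell 7, at 13207 CPM, had Jag1 at 138.2 CPM. Control granulosa cell 8, at 17049 CPM of oocyte markers, had 0.0882 CPM of each ligand. The part of oocyte transcripts in the ligand values was not tested.

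**Figure D1:**
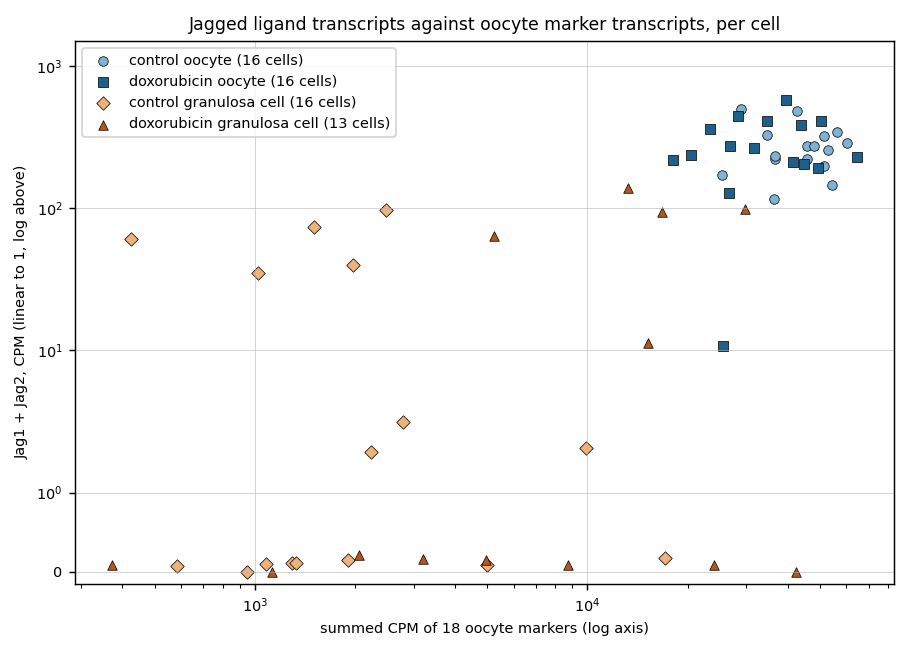
Each point is 1 cell. The x axis is the summed CPM of 18 oocyte markers (log scale) and the y axis the sum of Jag1 and Jag2 in CPM (linear to 1, log above). The 16 control oocytes sit together at the upper right, and 1 doxorubicin oocyte stands at 10.8 CPM of Jag2 with no Jag1. The granulosa libraries at 42293 and 23996 CPM of oocyte markers have almost no ligand. Those at 29770 and 16796 CPM of oocyte markers have 98.4 and 93.2 CPM of ligand.

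The receptors differed from one another in where they were found. Notch2 was the receptor detected in the most control granulosa cells, 9 of 16. It ran there from 0 CPM through a median of 2.47 to 209.6 CPM in cell 10. In control oocytes it was detected in 10 of 16 and ran from 0 through 0.872 to 134.9 CPM in oocyte 10. The groups overlapped over almost their whole ranges, and 1 granulosa cell stood above the highest oocyte. Group levels were 27.9 and 11.9 CPM, a log2 ratio of 1.23 (1.16 to 1.30) that was 0.17, under the 2-fold limit, without control granulosa cell 10 and stood at 2.05 without control oocyte 10. Over the 10 libraries led by granulosa markers it was 1.91.

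Notch1 was low in 3 of the 4 groups. Group levels were 0.818 CPM in control oocytes, 1.02 in doxorubicin oocytes and 2.19 in control granulosa cells. In each oocyte group 1 cell gave most of the counts: control oocyte 9, at 12.2 CPM, held 78.8% and doxorubicin oocyte 7, at 14 CPM, held 94.0%. Control granulosa cells had Notch1 in 6 of 16 libraries, the highest being cell 9 at 11.1 CPM, cell 1 at 9.64 and cell 11 at 8.78.

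Notch3, a receptor best known from vascular smooth muscle and pericytes, was close to absent. It had 59 counts over the control oocytes, 74.6% of them in 1 cell, and 0 counts over the doxorubicin oocytes and doxorubicin granulosa cells. The counting interval of a count of 0 reached up to 0.0206 CPM and 0.0258 CPM in those groups. All 255 counts of the control granulosa group lay in cell 3, at 20.5 CPM, and that library held 6425 CPM of pericyte and smooth muscle markers. Cell 16, at 7249 CPM of those markers, had no Notch3.

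Per kilobase of transcript, Notch2 was the highest receptor in both oocyte groups (1.13 and 0.787 CPM per kilobase) and in control granulosa cells (2.66, against 0.230 for Notch1). In doxorubicin granulosa cells Notch1 was at 6.54 and Notch2 at 5.56 CPM per kilobase. These neighbours rest on different libraries and their spread over cells is far wider than their gap.

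The targets were found on both sides of the follicle, at different levels. Hes1, the HES repressor most often read as a Notch response, was detected in 13 of 16 control oocytes and 15 of 16 control granulosa cells. It stood at 0, 4.09 and 34.0 CPM (lowest, median, highest) in control oocytes and at 0, 6.04 and 375.3 CPM in control granulosa cells. The medians were close, and 5 of 16 granulosa cells lay above the highest oocyte. Group levels were 6.64 and 59.7 CPM, a log2 ratio of 3.17 (3.09 to 3.25), or 2.38 without control granulosa cell 10.

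Hey1, a HEY repressor, had different shapes in the 2 cell types. It was low and even in control oocytes, where 14 of 16 had it, at 0, 10.1 and 24.9 CPM. In control granulosa cells it was all or nothing: 5 of 16 libraries had it, at 832.5 CPM in cell 10, 384.4 in cell 1, 210.5 in cell 11, 159.6 in cell 4 and 44.2 in cell 7, and the other 11 lay at or under 0.184 CPM. Each of the 5 positive granulosa libraries stood above the highest oocyte, and the median granulosa cell, at 0.131 CPM, stood below the median oocyte. The log2 ratio of group CPM was therefore 3.30 (3.23 to 3.36, and 2.18 without control granulosa cell 10), while the difference between the median cells was -3.30 on the log2(CPM + 1) scale.

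Hey2 and Heyl were granulosa-side targets. Hey2 was detected in 4 of 16 control granulosa cells, with 119.6 CPM in cell 4, 58.6 in cell 10 and 50.0 in cell 11, and in 3 of 16 control oocytes, at most 2.78 CPM. Its group levels were 15 and 0.240 CPM, a log2 ratio of 5.97 (5.55 to 6.42) that ranged from 5.04 without control granulosa cell 4 to 7.35 without control oocyte 6. Heyl was detected in 10 of 16 control granulosa cells, at 0, 25.9 and 292.4 CPM, and in 3 of 16 control oocytes, at 0, 0 and 25.0 CPM. The groups overlapped in both genes, with 3 granulosa cells above the highest oocyte in Hey2 and 8 in Heyl. For Heyl, 84.5 CPM against 1.89 CPM gave a log2 ratio of 5.49 (5.34 to 5.64), or 8.16 without control oocyte 3.

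Oocytes with Heyl were among those whose libraries held many granulosa transcripts, and the 2 with the most, doxorubicin oocytes 9 and 11, had 0 Heyl counts. Ranked by granulosa marker sum over the 32 oocytes, the 4 with at least 5 Heyl counts were doxorubicin oocyte 12 at rank 3 (1997 CPM of granulosa markers, 210 Heyl counts), control oocyte 7 at rank 4 (1032 CPM, 46 counts), control oocyte 3 at rank 5 (621.0 CPM, 315 counts) and control oocyte 14 at rank 6 (491.3 CPM, 8 counts). In the 11 control oocytes under 200 CPM of granulosa markers Heyl had 0 counts, and in the 12 such doxorubicin oocytes 1 count. Hey1 and Hes1 were present there too, at 9.94 and 7.31 CPM in control and 14.7 and 11.1 CPM in doxorubicin oocytes.

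Heyl was found in granulosa libraries with many and with few pericyte markers. Control granulosa cells 16 and 3, rich in those markers, had Heyl at 292.4 and 235.1 CPM with Hey1 at 0. Cells 10, 12, 4 and 9, whose pericyte marker sums were 0.07520, 126.3, 0.1735 and 86.63 CPM, had Heyl at 216.5, 145.3, 140.9 and 120.2 CPM. Among the 10 control libraries led by granulosa markers Heyl was detected in 8, at a group level of 76.8 CPM. The part of pericytes in the Heyl values was not tested.

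Of the 9 members, 7 had at least 5 CPM in control oocytes or control granulosa cells. The 4 targets and Notch2 were at least 2-fold higher in granulosa cells, and both ligands at least 2-fold lower. Over all 12373 genes with that level, 31.3% were at least 2-fold higher and 29% at least 2-fold lower, so most genes with a comparable level differed by this much. The median log2 ratio was 3.17 over the 7 members and 0.03 over all genes. Notch1 and Notch3 were under 5 CPM in both groups.

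**Figure D2:**
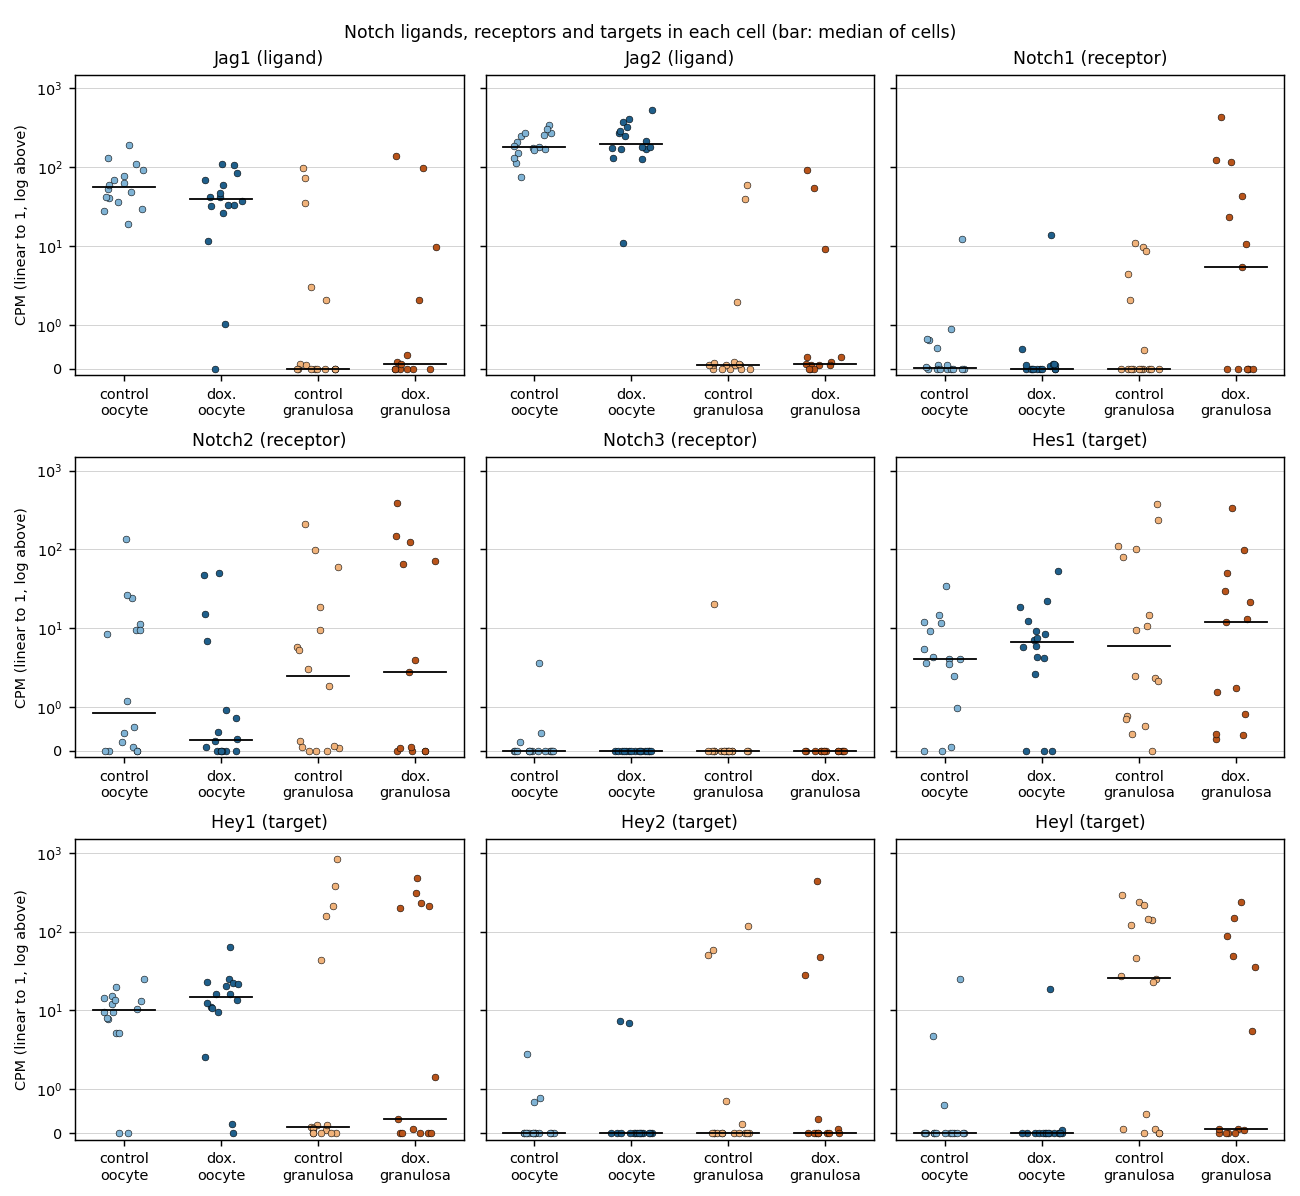
Each panel is 1 gene and each point 1 cell, with CPM on the y axis (linear to 1, log above) and the 4 groups on the x axis. Bars mark medians over 16, 16, 16 and 13 cells. Jag1 and Jag2 are high in oocytes, Hey1 is narrow in oocytes and split in granulosa cells, and Notch1 is above 11.1 CPM in 5 doxorubicin granulosa cells and in no control granulosa cell.

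In oocytes the Notch members with at least 5 CPM stayed within 2-fold of control after doxorubicin. Jag2 had a lowest value of 10.8 CPM, a median of 197.9 and a highest of 538.1 in doxorubicin oocytes, where control oocytes ran from 75.3 through 182.2 to 347.7 CPM. Jag1 had 0, 39.3 and 109.7 CPM, where control oocytes had 19.0, 56.9 and 190.1 CPM. The ranges overlapped in both: 3 doxorubicin oocytes lay above the highest control for Jag2 and 1 below the lowest, and 3 lay below the lowest control for Jag1. Group levels of Jag2 were 245.6 and 200 CPM, a log2 ratio of 0.30 (0.28 to 0.32), and those of Jag1 were 47.3 and 70.6 CPM, a log2 ratio of -0.58 (-0.62 to -0.54). Leaving out 1 cell at a time, the ratio stayed between 0.15 and 0.37 for Jag2 and between -0.75 and -0.42 for Jag1.

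A single doxorubicin oocyte stood apart in the ligands. Doxorubicin oocyte 9 had no Jag1 count and Jag2 at 10.8 CPM. It held 25466 CPM of oocyte markers, and at 3137 CPM the most granulosa markers of the 32 oocytes. Doxorubicin oocyte 10 had Jag1 at 1.02 CPM with Jag2 at 126.7 CPM. In the 12 doxorubicin oocytes under 200 CPM of granulosa markers, set against the 11 such control oocytes, the log2 ratios were -0.43 for Jag1 and 0.41 for Jag2.

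The oocyte targets Hey1 and Hes1 had somewhat higher group levels after doxorubicin. Hey1 ran from 0 through 14.8 to 63.3 CPM in doxorubicin oocytes and from 0 through 10.1 to 24.9 CPM in control oocytes, with 2 doxorubicin oocytes above the highest control. Hes1 ran from 0 through 6.60 to 53.2 CPM and from 0 through 4.09 to 34.0 CPM, with 1 doxorubicin oocyte above the highest control. The ranges overlapped throughout. Group log2 ratios were 0.65 (0.57 to 0.73) for Hey1, and 0.37 without doxorubicin oocyte 12, and 0.68 (0.58 to 0.79) for Hes1, which spanned 0.12 without doxorubicin oocyte 5 to 1.14 without control oocyte 8.

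Notch2 had no direction in oocytes that held. It was detected in 10 of 16 control oocytes, at 0, 0.872 and 134.9 CPM, and in 7 of 16 doxorubicin oocytes, at 0, 0.238 and 50.1 CPM. The ranges overlapped, and its log2 ratio of -0.52 (-0.62 to -0.43) stood at -1.28 without doxorubicin oocyte 5 and at 0.30 without control oocyte 10. Hey2, Heyl, Notch1 and Notch3 were under 5 CPM in both oocyte groups. Thus 5 of 9 members had at least 5 CPM, and 0 of them were at least 2-fold apart. Over 11119 genes, 6.30% were at least 2-fold higher and 2.45% at least 2-fold lower. The median log2 ratio was 0.30 over the 5 members and 0.01 over all genes.

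In granulosa cells the receptor Notch1 had the widest gap between treatments among the 8 members with at least 5 CPM. The 7 doxorubicin libraries that had it stood at 434.5 CPM in cell 4, 123.1 in cell 2, 117.9 in cell 16, 43.0 in cell 8, 23.6 in cell 14, 10.5 in cell 15 and 5.46 in cell 13. The other 6 had 0 counts. In control granulosa cells 6 of 16 had it, at most 11.1 CPM, so 5 doxorubicin libraries lay above every control library and the rest overlapped. Group levels were 62.1 and 2.19 CPM, a log2 ratio of 4.83 (4.68 to 4.98), which stood at 3.66 without doxorubicin granulosa cell 4.

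Libraries with high Notch1 differed in their oocyte transcripts. Doxorubicin granulosa cell 4 held 23996 CPM of oocyte markers, cell 16 held 1127, cell 8 held 4945 and cell 14 held 3211 CPM, the last 3 with 9452, 10482 and 9727 CPM of granulosa markers. Of the libraries with more granulosa than oocyte markers, 5 of 5 doxorubicin and 5 of 10 control ones had Notch1, at group levels of 39.6 and 3.04 CPM, a log2 ratio of 3.70. These 5 include cells 13 and 15, where stroma and theca or blood and immune markers led. In the other 3, led by granulosa markers, Notch1 was at a group level of 58.5 CPM and the log2 ratio was 4.26. Among libraries with at least 5000 CPM of granulosa markers it was found in 4 of 7 and 5 of 10, at 28.2 and 3.04 CPM, a log2 ratio of 3.21. The part of oocyte transcripts in the Notch1 values was not tested. Cell 16, with Notch1 at 117.9 CPM, had 87.12 CPM of endothelial markers, and cells 2, 8 and 14 had 0.

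Notch2 was found both with and without Notch1. The doxorubicin libraries with the most were cell 12 at 388.2 CPM, cell 13 at 150.2, cell 15 at 122.8, cell 6 at 72.0 and cell 14 at 65.3, and of these cells 13, 14 and 15 also had Notch1. Notch2 ran from 0 through 2.78 to 388.2 CPM there and from 0 through 2.47 to 209.6 CPM in control granulosa cells, with 1 doxorubicin library above the highest control. The log2 ratio of group CPM was 1.07 (1.02 to 1.12), and 0.31 without doxorubicin granulosa cell 12, 2.13 without control granulosa cell 10, and 0.55 over libraries with more granulosa than oocyte markers. With the 3 doxorubicin libraries led by granulosa markers it turned to -1.01, from 22.3 against 44.7 CPM. At a limit of 5 CPM, 3 of 13 doxorubicin and 2 of 16 control libraries had both Notch1 and Notch2.

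The targets did not go one way between treatments in granulosa cells. Heyl was lower with doxorubicin: 6 of 13 libraries had it, at 0, 0.104 and 235.5 CPM, where 10 of 16 control libraries had it at 0, 25.9 and 292.4 CPM. The ranges overlapped, and the log2 ratio was -1.12 (-1.16 to -1.07), -1.77 without doxorubicin granulosa cell 12 and -0.66 among libraries with at least 5000 CPM of granulosa markers. Without control granulosa cell 16, rich in pericyte markers, it was -0.81, under the 2-fold limit.

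Hey2 was higher through 1 library. Doxorubicin granulosa cell 9 had 445.4 CPM and held 86.6% of the counts of its group, cell 2 had 47.2 and cell 16 had 28.3 CPM, and the median library had 0 in both treatments. The log2 ratio of 1.5 (1.44 to 1.57) turned to -1.28 without that cell, and stood at 2.43 without control granulosa cell 4. Cell 9 held 8715 CPM of oocyte and 5675 CPM of granulosa markers, and over libraries with more granulosa than oocyte markers, which leaves it out, the log2 ratio was -2.22. With the 3 doxorubicin libraries led by granulosa markers it was -1.55, from 8.34 against 24.4 CPM. Among libraries with at least 5000 CPM of granulosa markers, which keep cell 9, the Hey2 ratio was 1.54.

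Hes1 and Hey1 were within 2-fold. Hes1 ran from 0.265 through 11.9 to 338.1 CPM in doxorubicin and from 0 through 6.04 to 375.3 CPM in control granulosa cells, and its log2 ratio of -0.58 (-0.62 to -0.53) became -1.68 without doxorubicin granulosa cell 12 and 0.22 without control granulosa cell 10. Over libraries with more granulosa than oocyte markers it was -2.0, from 23.8 against 95 CPM, and with the 3 doxorubicin libraries led by granulosa markers -2.36. Hey1 was again split: 5 doxorubicin libraries stood at 480.0 CPM (cell 14), 313.1 (cell 4), 233.2 (cell 10), 208.5 (cell 13) and 199.3 (cell 12), and the other 8 lay at or under 1.45 CPM. Its log2 ratio was 0.08 (0.05 to 0.11), and 1.19 without control granulosa cell 10. It was -0.44 without doxorubicin granulosa cell 14, -0.80 where granulosa markers reached 5000 CPM, and -0.26 over libraries with more granulosa than oocyte markers.

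The ligands had no steady direction in granulosa cells. Jag1 was at 19.3 CPM with doxorubicin and 14.5 CPM in control, and the log2 ratio of 0.41 (0.33 to 0.49) became -0.68 on leaving out doxorubicin granulosa cell 7, -0.18 on leaving out cell 6 and 1.13 on leaving out control granulosa cell 4. Jag2 was at 11 and 6.41 CPM, and the log2 ratio of 0.78 (0.67 to 0.89) became -0.33 on leaving out doxorubicin granulosa cell 12 and 2.0 on leaving out control granulosa cell 5. In the 5 doxorubicin libraries with more granulosa than oocyte markers Jag1 had 3 counts and Jag2 had 4 counts in all, so each ligand-positive doxorubicin library was one with more oocyte than granulosa markers. These ligand-positive libraries were cells 2, 6, 7, 10 and 12, with 5234 to 29770 CPM of oocyte markers, and the part of oocyte transcripts in the result was not tested.

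Of the 9 members, 8 had at least 5 CPM in a granulosa group. Notch1, Notch2 and Hey2 were at least 2-fold higher with doxorubicin and Heyl at least 2-fold lower, against 20.6% higher and 20% lower over 12194 genes. The median log2 ratio was 0.59 over the 8 members and -0.03 over all genes. Both doxorubicin comparisons share their control cells with the comparison of granulosa cells and oocytes, so the 3 sets of ratios are not independent.

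**Figure D3:**
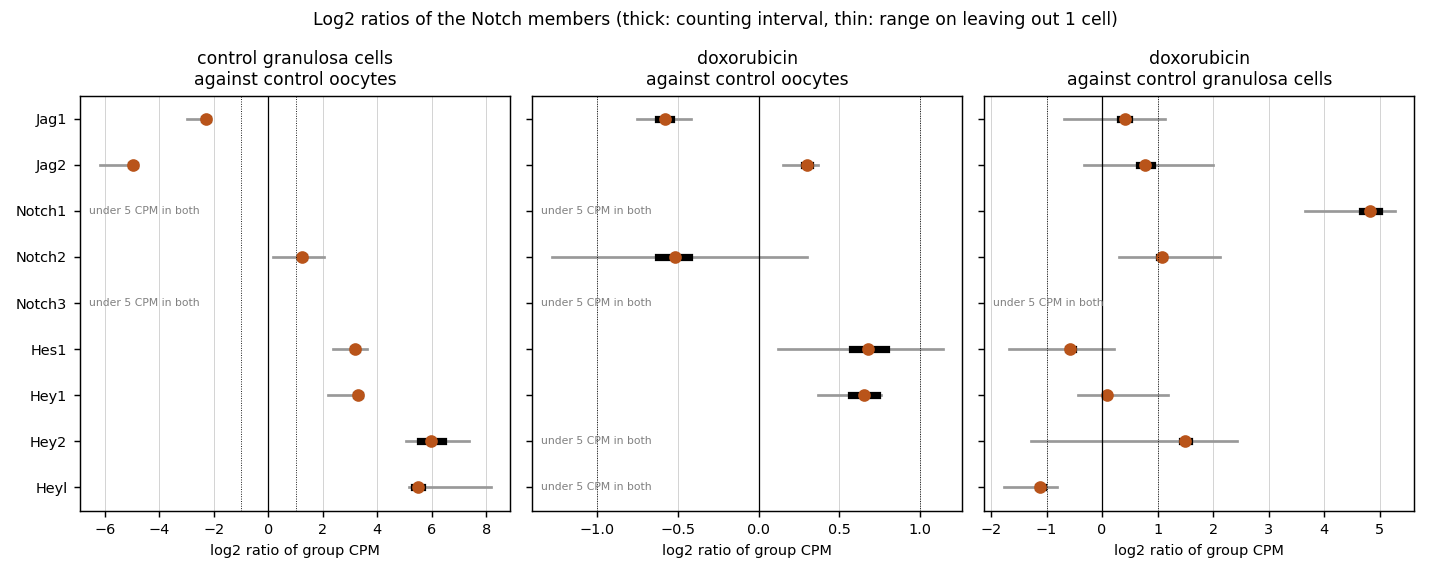
Each panel is 1 comparison, with the log2 ratio of group CPM on the x axis and the genes on the y axis. Points are ratios, thick bars 95% counting intervals, thin bars the range on leaving out 1 cell at a time, and dotted lines mark 2-fold. In doxorubicin against control granulosa cells the thin bar of Notch1 spans 3.66 to 5.27 and that of Hey2 spans -1.28 to 2.43.

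Within single granulosa libraries, targets came in a few combinations. At a limit of 5 CPM, 3 of 16 control libraries (cells 4, 10 and 11) had all 4 targets, 5 of 16 had none, and 0 of 13 doxorubicin libraries had all 4 while 3 had none. Hes1 and Hey1 were found together in 5 control and 4 doxorubicin libraries at this limit, and Hes1 and Heyl in 7 and 6. The control libraries 2, 8 and 13, rich in stroma markers, were among those with no target at 5 CPM. Their Hes1 stood at 0.381, 2.12 and 0.732 CPM, and their Heyl at most 0.0882 CPM. Library 8 held more oocyte markers, 17049 CPM, than stroma and theca markers, 9642 CPM. Doxorubicin granulosa cell 13, also rich in stroma markers, had Hes1 at 49.6 and Hey1 at 208.5 CPM, and control granulosa cell 16, at 5356 CPM of stroma markers, had Heyl at 292.4 CPM. The other control libraries with none were cell 5, which had Jag2 at 60.4 CPM, and cell 14. Cell 14 held 9875 CPM of oocyte and 5203 CPM of stroma and theca markers. The doxorubicin libraries with none were cells 1, 6 and 7, with 42293, 29770 and 13207 CPM of oocyte markers.

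A receptor and a target occurred in the same library at 5 CPM in 8 of 16 control and 8 of 13 doxorubicin granulosa cells. A receptor stood without a target in 1 library of each group, and a target without a receptor in 3 and 2. At the looser limit of 5 counts, a receptor and a target were found together in 11 of 16 control and 10 of 13 doxorubicin granulosa cells. At that limit oocytes also had both, in 13 of 16 control and 8 of 16 doxorubicin oocytes, each with a ligand as well. The remaining 3 control and 8 doxorubicin oocytes were those with no receptor at 5 counts. Control granulosa cell 10 was the top control library for Notch2, Hes1 and Hey1, at 209.6, 375.3 and 832.5 CPM, and it held 73.8 CPM of Jag1. Over the 29 granulosa libraries Hes1 and Hey1 had a Spearman rho of 0.63 (Pearson r 0.72 on log2(CPM + 1)). All 11 libraries with Hey1 also had Hes1, but Hes1 was detected in 25 of the 29 libraries. Notch2 and Hes1 had a rho of 0.46, and Notch1 and Hes1 of 0.07. These values are descriptions over libraries of 2 groups that share total depth and mixed cell content.

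**Figure D4:**
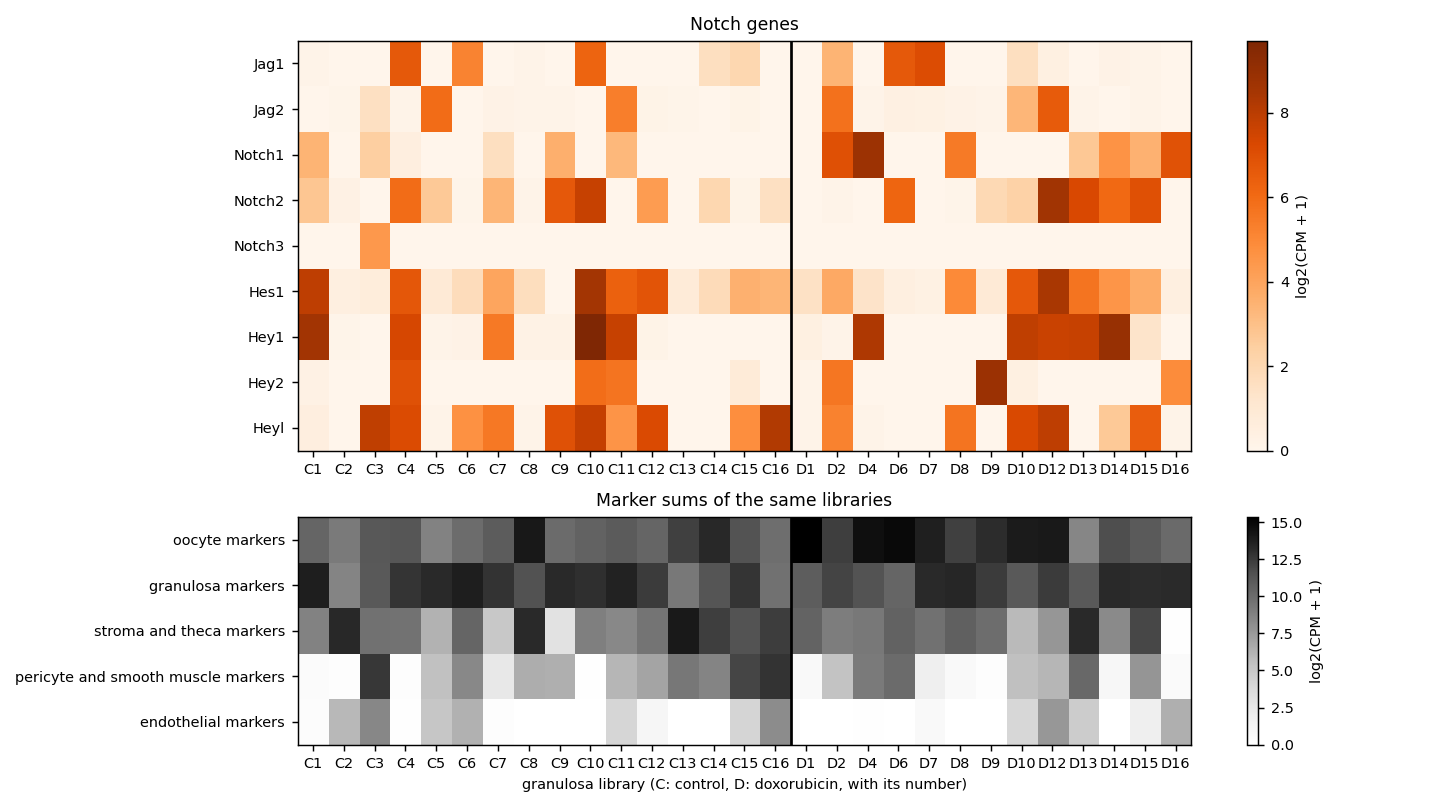
Columns are the 29 granulosa libraries, control at left and doxorubicin at right of the black line. The upper map shows log2(CPM + 1) of the 9 genes and the lower map that of summed marker lists for the same libraries. Control cells 4, 10 and 11 are dark in all 4 targets, and the dark Notch1 squares of doxorubicin cells 2, 4, 8, 14 and 16 have no counterpart among control cells.

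Of 58 other pathway genes listed, 54 have a row. They cover further ligands, sugar transferases, ligand endocytosis, proteases, the nuclear complex, corepressors, negative regulators and other targets. Dll4 was not analysed here. In control granulosa cells against control oocytes 42 had at least 5 CPM, with 12 at least 2-fold higher (31.3% over all genes) and 9 lower (29% over all genes), and a median log2 ratio of -0.22. Myc, a growth regulator and Notch target, stood at 410.4 against 16.9 CPM (log2 ratio 4.60, 4.55 to 4.65, and 5.24 without control oocyte 7), and Bhlhe40, another repressor of the helix-loop-helix class, at 79.0 against 10.5 CPM (2.91, and 1.87 without control granulosa cell 8). Of the Deltex genes, which regulate Notch trafficking, Dtx3 was higher in granulosa cells (44.5 against 2.42 CPM, log2 ratio 4.20) and Dtx2 higher in oocytes (24.2 against 246.2 CPM, -3.34). Also higher in oocytes were the corepressor gene Tle4 (19.2 against 154.3 CPM, -3.01), the gamma-secretase subunit gene Aph1c (2.22 against 19.7 CPM, -3.14) and Pofut1, which fucosylates Notch receptors (0.790 against 5.47 CPM, -2.79). Aph1c was at or under 3 counts in control granulosa cells on leaving out cell 6, and Pofut1 on leaving out cell 16. Their log2 ratios of -10.09 and -8.25 then rested on the floor of 3 counts.

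The other ligands differed between the control cell types. Dner, a Delta-like membrane protein, was at 14.2 CPM in control oocytes with 0 counts in control granulosa cells, at least 849.6-fold lower there. Dner stood at 15.6 CPM in doxorubicin granulosa cells, at least 936.1-fold higher than in control ones, and the log2 ratio was 0.45 without doxorubicin granulosa cell 7. Dll1, a Delta ligand, had 0 counts in both oocyte groups and stood at 8.46 CPM in control granulosa cells, at least 551.8-fold higher there, and nearly all of it lay in cell 11: without that cell the log2 ratio was 0.21. Dll1 stood at 4.89 CPM in doxorubicin granulosa cells. Notch4 was under 5 CPM in each group. Rbpj, the DNA-binding partner of the cleaved receptor, was higher in control granulosa cells, at 37.4 CPM, than in control oocytes, at 13.2 CPM (log2 ratio 1.5, and 0.91 without control granulosa cell 8).

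In oocytes 39 pathway genes had at least 5 CPM, with 3 at least 2-fold higher with doxorubicin (6.30% over all genes), 0 lower (2.45% over all genes), and a median log2 ratio of 0.11. The 3 were the Mastermind coactivator Maml3 (11.1 against 1.30 CPM, log2 ratio 3.09, 2.90 to 3.28), Fbxw7, a ubiquitin ligase subunit that targets the Notch intracellular domain (57.8 against 22.8 CPM, 1.35, 1.29 to 1.40), and the Fringe sugar transferase Mfng (7.08 against 2.58 CPM, 1.46, 1.31 to 1.61). Fbxw7 was above the highest control in 8 of 16 doxorubicin oocytes. Without doxorubicin oocyte 4, whose raw data the series text calls lost, the log2 ratios were 2.49 for Maml3, 1.14 for Fbxw7 and 0.79 for Mfng. Group levels of Rbpj were close (13.5 against 13.2 CPM, 0.04, -0.04 to 0.12).

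In granulosa cells 43 pathway genes had at least 5 CPM, with 12 at least 2-fold higher with doxorubicin (20.6% over all genes), 9 lower (20% over all genes), and a median log2 ratio of 0.31. Ccnd1, the cyclin D1 gene and a known Notch target, was at 25.6 against 0.0167 CPM, where the control value is 3 counts (log2 ratio 10.58, 9.03 to 12.86). Its log2 ratio was 9.77 over libraries with more granulosa than oocyte markers and 8.95 where granulosa markers reached 5000 CPM. With the 3 doxorubicin libraries led by granulosa markers, Ccnd1 was at or under 3 counts in both groups. Mfng was at 14 against 0.00556 CPM, where the control value is 1 count (9.71, 8.81 to 16.60, and 7.91 without doxorubicin granulosa cell 6), and in libraries with more granulosa than oocyte markers it was at or under 3 counts in both groups. Dtx1 was at 17.3 against 0.195 CPM (6.48, 5.76 without doxorubicin granulosa cell 13 and 8.53 without control granulosa cell 12). The Dtx1 ratio was 6.29 over libraries with more granulosa than oocyte markers and 2.72 where granulosa markers reached 5000 CPM. With the 3 doxorubicin libraries led by granulosa markers it turned to -1.55. Dtx2 was at 76.7 against 24.2 CPM (1.66, and 0.21 over libraries with more granulosa than oocyte markers). The Dtx2 ratio was 1.53 where granulosa markers reached 5000 CPM and 0.30 with the 3 doxorubicin libraries led by granulosa markers. Bhlhe40 was at 219.8 against 79.0 CPM (1.48, and 2.51 without control granulosa cell 8). Fbxw7 was at 40.7 against 12.5 CPM (1.70, and 0.36 among libraries with at least 5000 CPM of granulosa markers). Lower with doxorubicin were the acetyltransferase gene Kat2b (1.13 against 10.0 CPM, -3.15, and -8.36 without doxorubicin granulosa cell 13) and Rbpj (12.6 against 37.4 CPM, -1.57). Rbpj stood at -0.97 or below on leaving out any 1 cell, and at -0.28 over libraries with more granulosa than oocyte markers. It stood at -1.11 where granulosa markers reached 5000 CPM and at -1.30 with the 3 doxorubicin libraries led by granulosa markers. Dtx2 was also high in control oocytes, at 246.2 CPM. The median oocyte marker sum was 8715 CPM in doxorubicin and 1705 CPM in control granulosa libraries, and the part of oocyte transcripts in these ratios was not tested.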

How the data were processed

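Messenger RNA of single oocytes and single granulosa cells was copied into cDNA, amplified and indexed (SMART-seq), per the labels' protocols. The deposited table gives estimated counts, with 1 column for each cell, and 34.0% of its nonzero entries have decimals. The submitters' processing notes name Partek, Bowtie2, HISAT2, DESeq2 and the build mm10. Which tool made the counts, its version, the annotation and the filters are not given in the sources used here. Counting strand is not given either, so reads of overlapping antisense genes cannot be told apart.

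Counts were rounded, summed over the cells of a group and expressed as CPM of the summed library totals (Python 3.11.15, numpy 2.4.6, pandas 2.3.3, scipy 1.17.1, matplotlib 3.10.9). The log2 ratio of group CPM has an exact conditional binomial (Clopper-Pearson) interval, with a floor of 3 counts over a group. Group CPM has exact Poisson intervals. A gene counts as apart with at least 5 CPM in either group and a ratio of at least 2-fold. Detection means at least 5 counts. Levels between genes use CPM per kilobase of the longest coding transcript in GENCODE M21. The calculation was tested on simulated data. No 2 cells of a group had counts agreeing within sampling noise (lowest chi-square per degree of freedom 56.7).

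The members and lists were chosen with earlier results of these data known. All 9 members are named. Of the pathway list, up to 8 genes per comparison that were at least 2-fold apart are named, ranked by their smallest ratio on leaving out each cell, plus Rbpj, Dll1, Dll4 and Notch4. A gene that this rule names is not reported here. Alternatives were TMM factors (edgeR 4.0.16) and median-of-ratios size factors (DESeq2 1.42.0) on group sums, other ways of combining cells, other limits, other subsets of cells (1 of them chosen after seeing the data) and leaving out each cell.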

Additional observations from a re-analysis of the deposited data

How the results depend on the processing

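No paired analysis was possible because each group is 1 sample of single cells and nothing is tested, and the number in a label only names a cell. Scaling hardly mattered: group factors were 0.9915 to 1.0090 by TMM and 0.9812 to 1.0200 per count by size factors. The median cell in place of summed counts turned Hey1 in control granulosa cells against control oocytes to -3.30, and gave 4 members at least 2-fold apart in place of 7. Leaving out 1 cell gave 6 to 7 members there, 0 to 1 in doxorubicin against control oocytes, and 2 to 5 in doxorubicin against control granulosa cells. It turned Hey2 in the last comparison, with a range of -1.28 to 2.43, as did keeping libraries with more granulosa than oocyte markers (-2.22). Keeping those whose granulosa markers exceed each other list, a choice made after seeing the data that leaves 3 doxorubicin libraries, turned Hey2 to -1.55 and Notch2 to -1.01 and gave 7 members apart in place of 4. In the same comparison, 2 members in place of 4 were apart among libraries with at least 5000 CPM of granulosa markers. In oocytes 2 members were apart with no minimum CPM, and 2 at 1.5-fold. Of the pathway genes, 21 in the comparison of cell types became 12 at 20 CPM and 34 at 1.5-fold (19 to 23 on leaving out 1 cell). The 3 in oocytes became 8 with no minimum, 1 at 20 CPM and 9 at 1.5-fold (2 to 4 on leaving out 1 cell). Leaving out 1 cell gave 19 to 25 in granulosa cells. The share over all genes is given for the main settings only, so these other counts cannot be set beside it. They are not read as results about the Notch genes. Fewer or more genes pass a stricter or looser limit by its construction. For the other values the cause was not tested. Of 142 member ratios under other settings, 59 stayed within their counting interval, 79 moved beyond it, and 4 that had been at least 2-fold apart changed sign. Counting also those within 2-fold, 13 changed sign. Of 144 shares of cells, 127 stayed within their interval and 17 moved. The limit of at least 5 CPM for detection was chosen after seeing the data. For members above 5 CPM counting error was small beside the spread over cells. The spread between animals is unknown, so the precision of a difference between groups is unknown too.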

Other observations

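Genes whose levels were most like those of 3 members were ranked by Spearman correlation of log2(CPM + 1) over cells that share depth and mixed content, as a description. For Jag2 over the 32 oocytes they were Actn4, an actin cross-linker (rho 0.70), Aars, alanyl-tRNA synthetase (0.69), and Yeats4 (0.69), among 8902 genes whose 95th percentile of rho was 0.37. Jag1 and Jag2 themselves had a rho of 0.34 and a Pearson r of 0.64 there. For Hey1 over the 29 granulosa libraries they were Srsf5, a splicing factor (0.66), Me2, a mitochondrial malic enzyme (0.65), and Hes1 (0.63), among 3276 genes with a 95th percentile of 0.33. For Notch2 over the same libraries they were Dtnb, Adamts2 and Mgat2, each at 0.59.

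At the limit of 5 counts, 3 of 16 control and 8 of 16 doxorubicin oocytes had none of the 3 receptors. Some oocytes that passed had a receptor under 1 CPM only, such as control oocyte 4 (Notch2 at 0.544 CPM) and doxorubicin oocyte 6 (0.442 CPM). At the limit of 5 CPM, Notch2 was found in 7 of 16 control and 4 of 16 doxorubicin oocytes, Notch1 in 1 of each and Notch3 in 0. Hey2 in oocytes was found in the libraries with the most granulosa transcripts, doxorubicin oocytes 9 and 11 (61 and 68 counts, with 3137 and 2644 CPM of granulosa markers). Doxorubicin oocyte 12, next at 1997 CPM, had 0 counts. Control oocytes 7 and 3, at 1032 and 621.0 CPM, had 7 and 10 counts. Control oocyte 6, which at 10.75 CPM had the least granulosa markers, had 30 counts.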
